A study of Triticum aestivum with 24 samples.

Results

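ELF3, LUX and GI are evening genes of the plant circadian clock, and hexaploid bread wheat (Triticum aestivum) carries each of them as a triad of 1 copy on the A, B and D subgenome. The 9 genes described here are the A, B and D copies of ELF3 on group 1 chromosomes and of LUX and GI on group 3 chromosomes, 9 of the 107891 identifiers measured by leaf RNA sequencing. The names were attached to the identifiers when the set was defined and were not checked against an annotation, since no table used here pairs names with these identifiers. ELF3 is TraesCS1A02G443200, TraesCS1B02G477400 and TraesCS1D02G451200. LUX is TraesCS3A02G526600, TraesCS3B02G594300 and TraesCS3D02G531900. GI is TraesCS3A02G116300, TraesCS3B02G135400 and TraesCS3D02G118200. All 9 passed the filter on low values, as did 60088 identifiers in all.

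In Arabidopsis, ELF3 is the scaffold of the evening complex, in which LUX is the DNA-binding protein and ELF4 the third partner. The complex forms around dusk and represses transcription at night, and LUX and GI are among its targets. GI (GIGANTEA) is a large plant-specific protein that peaks late in the day, stabilises the photoreceptor ZTL and promotes flowering in long days through FKF1 and CONSTANS. In wheat and its relatives, variants of ELF3 and LUX underlie earliness loci. Transcripts of these genes cycle over the day, so the hour of sampling sets their level; neither the hour nor the day of leaf collection is given in the sources used here. A difference in hour between groups cannot be told apart from an effect of genotype or water.

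The study crossed 4 genotype labels with 2 water regimes, which made 8 groups of 3 libraries, 24 libraries in all. WT is the spring line Fielder. UBQ/TOR, DREM/TOR and DEH2/TOR are lines made from Fielder by transformation to express TOR, the target of rapamycin kinase, which links nutrient and energy supply to growth; they are called UBQ, DREM and DEH2 here after the first part of the construct name, and how many transformation events lie behind each is not given in the labels. Per the labels' protocols, all plants grew under 16 h light at 24 °C and 8 h dark at 18 °C, at 80% field capacity until 4 weeks old, and drought was imposed by withholding water for 12 days. The labels number the replicates but do not say whether they came from different plants. The p-values reflect only how far these libraries vary, which may be technical. All libraries carry the same batch label. The design text of the series names other genotypes and a re-watered treatment that the sample labels do not have, and groups were taken from the labels.

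Library depth was estimated at 33700000 to 55300000 reads. Correlations between libraries of a group lay between 0.974 and 0.986, and WT drought replicate 1 stood apart in having 29% of its summed values in its 50 most abundant genes, against 12.6% in both sister libraries. Some long runs of neighbouring genes went against the genotype labels. On the log2 scale, relative to the median of the 4 groups of a regime, the start of chromosome 1B had a median of -4.97 in the DEH2 well-watered group and -4.88 in the DREM drought group. A run on 2A was at -0.77 in the UBQ well-watered group and -0.71 in the WT drought group, and the start of 6B was at -4.03 in UBQ drought libraries only among the 8 groups. A run on 3D that contains LUX-D was at 0.83 in the DEH2 well-watered group and 0.67 in the DREM drought group. The other 8 members lie outside the 5 runs examined. These runs are not shared by the regimes of one label, so comparisons within a label are given below as labelled, and LUX, GI and ELF3 in each drought group are also set against all 4 well-watered groups.

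**Figure D1:**
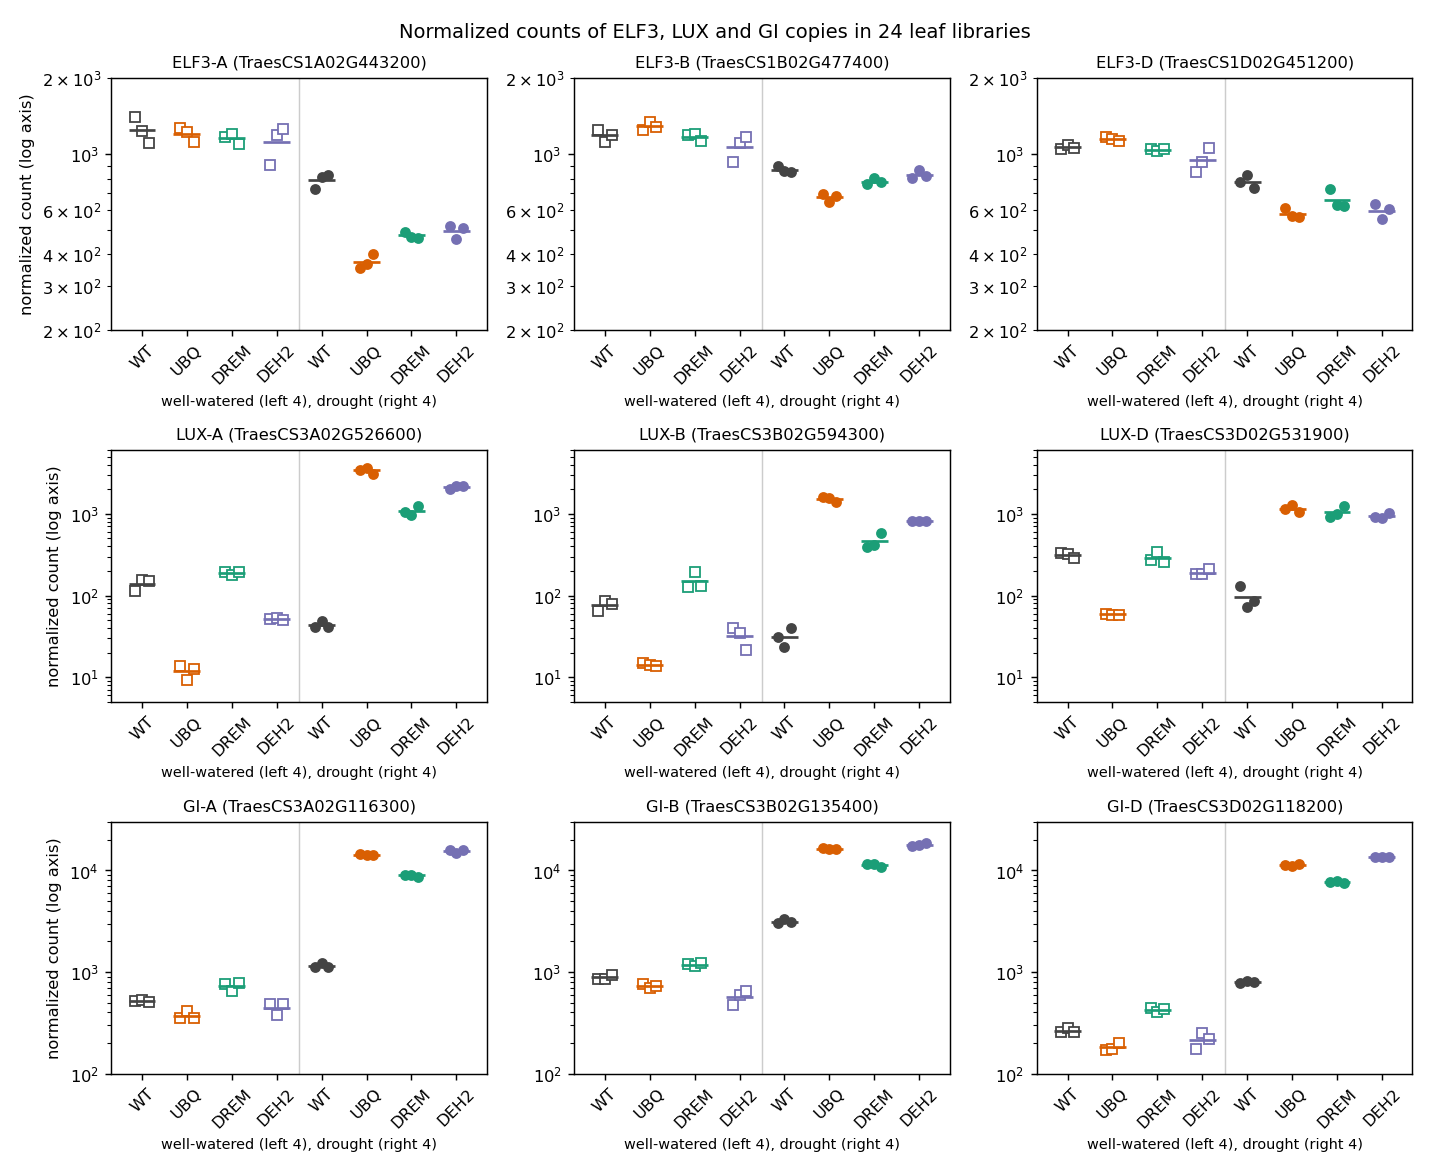
Normalized count (log10 axis) of each of the 9 genes in each library, with the 3 libraries of a group as points and the group mean as a line (open squares well-watered, filled circles drought). On the authors' scaling, LUX and GI in the UBQ, DREM and DEH2 drought libraries sit above all well-watered libraries of the same gene, LUX in the WT drought libraries does not, and ELF3 is lower in every drought group than in the well-watered groups. The share of all genes that separate across the labels was not counted.

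The 3 triads differed in different ways between the drought and well-watered libraries of a label. GI transcripts rose in all 4 genotype labels, by 3.05-fold in WT and by 11.9-fold in DREM, 32.7-fold in UBQ and 38.3-fold in DEH2, as ratios of the group means summed over the 3 copies. LUX transcripts rose 71.6-fold in UBQ, 14.2-fold in DEH2 and 4.14-fold in DREM, whereas in WT they were 3.08-fold lower under drought. ELF3 transcripts were lower under drought in all 4 labels, except for 1 copy in DEH2 under another scaling described below, by 2.24-fold in UBQ, 1.76-fold in DREM, 1.63-fold in DEH2 and 1.44-fold in WT. The summed levels carry no test, but each of the 9 genes was tested in the fit across all genes.

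All 9 members passed the threshold in each of the 4 drought comparisons (limma, adjusted p under 0.05), and their groups did not overlap in any of them. The transcriptome moved widely, so these counts are read against a large background. Of all genes tested, 72.8% passed in UBQ, 69.6% in DEH2, 68.9% in DREM and 61.4% in WT, and groups did not overlap for 76.5%, 72.4%, 73.9% and 63.6% in the same order. By direction, 37.2% of genes were higher and 35.6% lower in UBQ, 35.1% and 34.5% in DEH2, 35.2% and 33.7% in DREM, and 30.2% and 31.2% in WT. For the mean drought change over the 4 labels, all 9 members passed (81.8% of all genes), LUX with 3.57, 2.92 and 1.67 on the log2 scale for the A, B and D copies, GI with 3.79, 3.64 and 4.43 and ELF3 with -1.19, -0.59 and -0.69. By signed change, the 6 LUX and GI copies in UBQ lay between the 97.6 and 99.8 percentile of all genes tested, in DEH2 between the 93 and 99.2, and in DREM between the 88.8 and 98.1. In WT, LUX lay between the 8.07 and 12.8 percentile and GI between the 87.8 and 93.3. Ranked by absolute size instead, the changes of ELF3 lay between the 28.3 and 73.6 percentile over the 4 comparisons. The median change of all genes tested was within 0.0334 of 0 on the log2 scale in each of the 4. The data are from whole leaves, so fewer cells expressing a gene and less RNA per cell cannot be told apart.

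**Figure D2:**
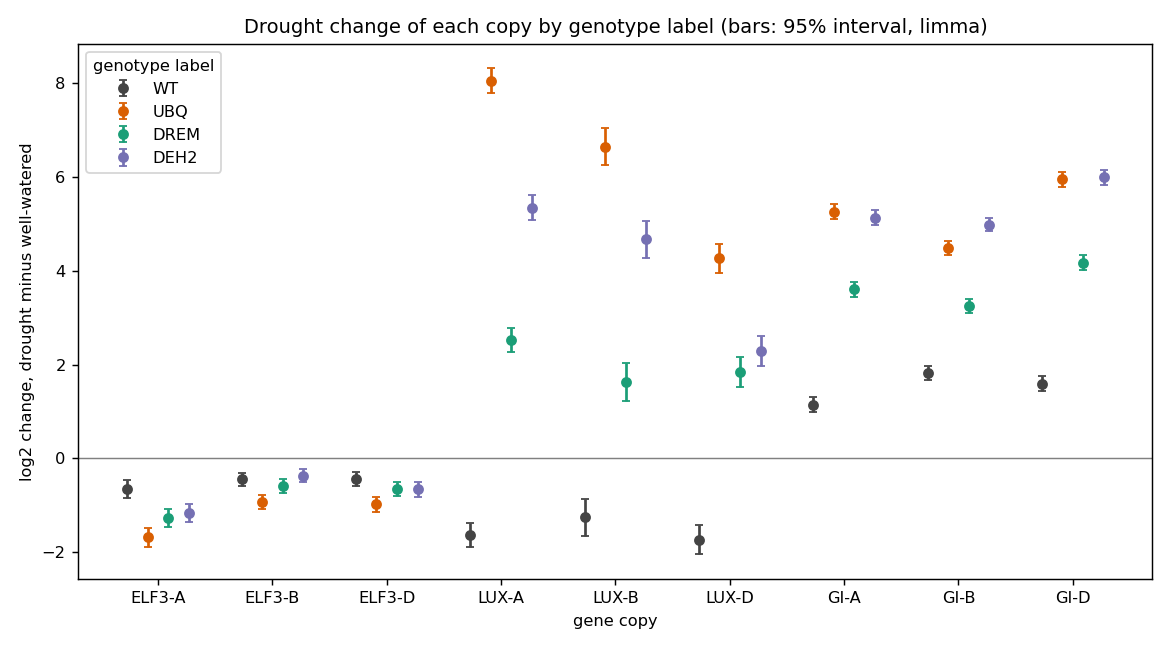
Log2 difference of drought minus well-watered libraries within each genotype label for the 9 genes, with bars for the 95% interval from the limma fit over 24 libraries (3 per group). On the authors' scaling, LUX lies below 0 in WT and above 0 in the UBQ, DREM and DEH2 lines, GI lies above 0 in all 4 and ELF3 below 0 in all 4.

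LUX encodes the MYB-like DNA-binding member of the evening complex, and its A copy showed the widest range of the 9 genes. LUX-A stood at 112.9, 156 and 148.5 normalized counts in the WT well-watered libraries and at 41.04, 49.24 and 40.85 in the WT drought libraries. In the UBQ well-watered libraries it was at 13.87, 9.321 and 12.5, and in the UBQ drought libraries at 3429, 3645 and 3102. The UBQ label therefore held both the lowest and the highest LUX-A group, with no overlap to any other group at either end.

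The low end rests on few reads. Over the 3 UBQ well-watered libraries, LUX-A had an estimated 28.9 reads (95% Poisson interval 19.3 to 41.5) and LUX-B 34.8 (24.2 to 48.5), where the interval covers counting error only. The log2 drought change of LUX-A in UBQ was 8.05 (SE 0.13, n = 3 per group, limma adjusted p = 9.27e-31), a 285-fold ratio of means. The fit gives each gene a common spread over all 8 groups, so this SE does not widen for the few reads. It may be too small here and in every other LUX-A and LUX-B comparison with UBQ well-watered libraries.

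In the other 2 transgenic lines the change of LUX-A was in the same direction and smaller. In DREM, LUX-A went from 192, 176.1 and 193.1 to 1065, 959.3 and 1236, a log2 change of 2.53 (SE 0.13, limma adjusted p = 1.59e-17). In DEH2 it went from 51.97, 53.47 and 50.54 to 2025, 2211 and 2218, a log2 change of 5.34 (SE 0.13, limma adjusted p = 5e-26). In both lines each drought library was above each well-watered library. In WT the change of LUX-A was -1.64 (SE 0.13, limma adjusted p = 1.23e-12).

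LUX-B changed in the same directions as the A copy. Its log2 changes were 6.64 in UBQ, 4.68 in DEH2, 1.63 in DREM and -1.26 in WT (SE 0.19 each), with well-watered libraries between 13.67 in UBQ and 192 in DREM. Its drought libraries lay between 23.68 and 39.92 in WT and between 397.6 and 1613 in the transgenic lines. LUX-D changed in the same directions and over a narrower range. It stood at 330.4, 324.5 and 284.4 in WT well-watered and 131.6, 72.04 and 84.97 in WT drought libraries. In UBQ it went from 60.21, 58.43 and 57.13 to 1130, 1283 and 1042. The 3 transgenic lines had about the same measured LUX-D level under drought, with group means of 1152 in UBQ, 1050 in DREM and 942.7 in DEH2. None of these neighbours in the order of levels differed beyond their spread (limma adjusted p = 0.492 and 0.48). However, the genes around LUX-D were raised in DREM drought libraries, as given below. Relative to the regime, LUX-D minus the median of its neighbouring genes was 0.33 in UBQ, -0.06 in DEH2 and -0.58 in DREM drought libraries. These values carry no test, and the part of the run in the measured levels was not tested. The log2 changes of LUX-D were 4.27 in UBQ, 2.30 in DEH2, 1.84 in DREM and -1.74 in WT (SE 0.15 each).

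The order of the 8 group levels was the same for LUX-A and LUX-B. From the lowest, it ran UBQ well-watered, WT drought, DEH2 well-watered, WT well-watered, DREM well-watered, DREM drought, DEH2 drought and UBQ drought. WT drought and DEH2 well-watered were the only neighbours in it that did not differ beyond their spread, with limma adjusted p of 0.0945 for LUX-A and 0.983 for LUX-B. Over all pairs of groups, 27 of 28 passed for LUX-A and for LUX-B and 24 of 28 for LUX-D, where 17.7% to 73.6% of all genes passed in a pair.

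The direction of LUX in WT depended on the well-watered group it was set against. Against the UBQ well-watered libraries, which share the shifted 2A run with the WT drought libraries, LUX-A, LUX-B and LUX-D in WT drought were higher, by 1.81, 1.06 and 0.66 on the log2 scale (limma adjusted p = 1.31e-13, 2.12e-05 and 0.000531, where 60% of all genes passed). Against DEH2 well-watered, the A and B copies did not pass in either direction, with differences of -0.25 and -0.01 (61.3% of all genes passed). LUX-D in WT drought was lower than 3 of the 4 well-watered groups, and LUX-A and LUX-B were lower than 2. In the drought groups of the 3 transgenic lines, each LUX copy was higher than in all 4 well-watered groups. The differences there ran from 1.59, for LUX-D in DEH2, to 8.05, for LUX-A in UBQ. In these pairs, 66.8% to 73.6% of all genes passed in either direction, and the share higher in all of them was not counted. In DREM drought against DEH2 well-watered, which share the shifted runs on 1B, 3A and 3D, LUX-A, LUX-B and LUX-D were higher by 4.35, 3.84 and 2.44 (69.1% of all genes passed).

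**Figure D3:**
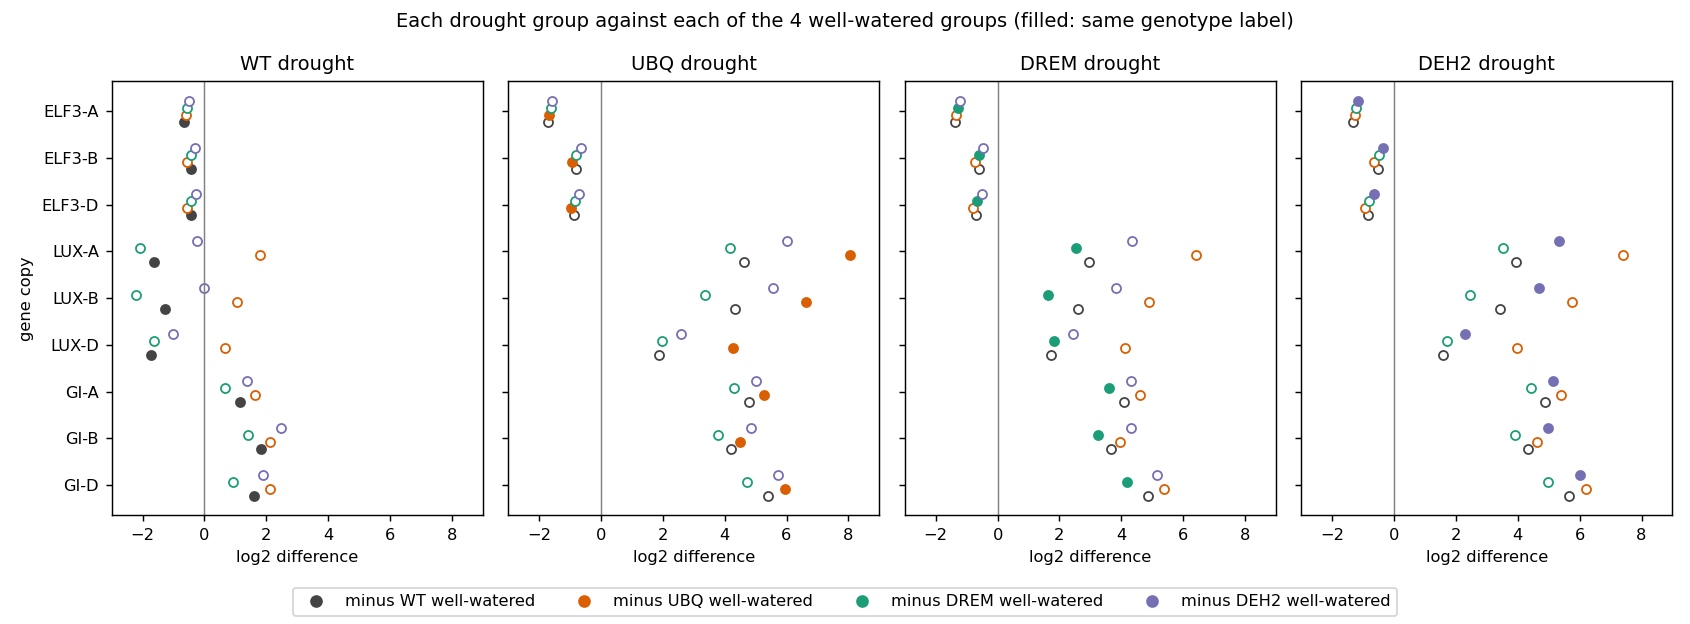
Log2 difference of each drought group from each of the 4 well-watered groups for the 9 genes, with the comparison inside a genotype label as a filled point. On the authors' scaling, GI is above 0 and ELF3 below 0 against all 4, while LUX in WT drought ranges from -2.22 to 1.81. In these pairs of groups, 58.1% to 73.6% of all genes passed in either direction.

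LUX-D lies inside the shifted 3D run, so its neighbours were examined. The 30 neighbouring genes, from TraesCS3D02G529500 to TraesCS3D02G536600, had a median of 0.86 in the DEH2 well-watered group and 0.66 in the DREM drought group relative to the regime. LUX-D itself was at -0.30 and 0.08 there. With drought the neighbours' median changed by 0.75 in DREM, -1.05 in DEH2, -0.12 in WT and by less than 0.01 in UBQ. LUX-D minus this median was 1.09 in DREM, 3.35 in DEH2, 4.27 in UBQ and -1.62 in WT, the same directions as for LUX-D alone. The part of the run in the LUX-D level was not tested. Around the other 8 members, and around LUX-D in the other 6 groups, the neighbours' median was at most 0.20 from the regime's median in absolute size.

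**Figure D4:**
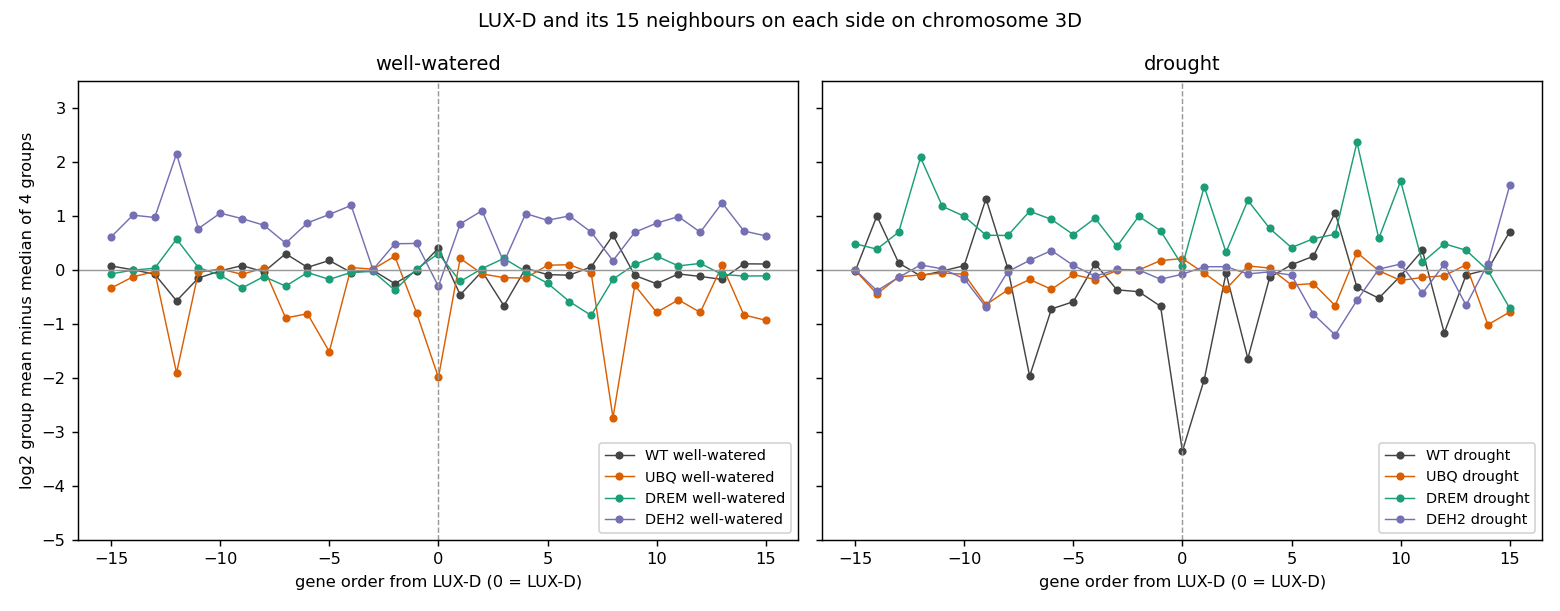
Log2 level relative to the median of the 4 groups of a regime for LUX-D (order 0) and the 15 genes on each side, by position in the gene order, in each group. The neighbours lie above 0 in DEH2 well-watered (median 0.86) and DREM drought (median 0.66) and have a median within 0.20 of 0 in the other groups.

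GI, the late-day flowering regulator, was the triad that rose with drought under all 4 labels. GI-D stood at 256.3, 281.5 and 256.8 normalized counts in WT well-watered and at 773.1, 824.1 and 804.5 in WT drought libraries. In UBQ it went from 172.1, 176.7 and 199.5 to 11212, 11188 and 11562, and in DEH2 from 175.1, 249.4 and 217 to 13470, 13646 and 13564. In DREM it went from 442.3, 400.6 and 435.4 to 7726, 7803 and 7502. No drought library of any genotype label overlapped a well-watered library of any label. Within a label, groups did not overlap for 63.6% to 76.5% of all genes tested, and the share that separates across all labels was not counted.

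The log2 changes of GI-D were 6.0 in DEH2, 5.95 in UBQ, 4.17 in DREM and 1.59 in WT (SE 0.08 each, n = 3 per group, largest limma adjusted p = 1.82e-17). GI-A changed by 5.13, 5.26, 3.61 and 1.14 in the same order (SE 0.08). Its well-watered libraries lay between 350.8 and 783.9, its WT drought libraries between 1122 and 1222, and the drought libraries of the lines between 8716 and 15993. GI-B changed by 4.98, 4.49, 3.26 and 1.83 (SE 0.07). Its WT drought libraries, at 3021, 3296 and 3118, were above all well-watered libraries, the highest of which was 1221, and below all drought libraries of the lines, the lowest of which was 10909. Against each of the 4 well-watered groups, every GI copy was higher in every drought group, by 0.66 to 6.21 on the log2 scale. In these pairs, 58.1% to 73.6% of all genes passed in either direction, and the share higher in all of them was not counted.

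The GI levels fell into a nearly full order. In a pair of groups, 17.7% to 73.6% of all genes passed the threshold. For GI-A and GI-B, 27 of 28 pairs passed the threshold, and for GI-D 28 of 28. The only pair short of it, for both A and B, was DEH2 drought against UBQ drought (limma adjusted p = 0.209 and 0.122). For GI-D that pair passed, at 13560 in DEH2 against 11321 in UBQ (limma adjusted p = 0.00945). For all 3 copies DREM drought came next below these and WT drought next below DREM drought. Among the well-watered groups, DREM was highest for all 3 copies, WT next, and UBQ was lowest for GI-A and GI-D and DEH2 for GI-B.

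ELF3, the scaffold of the evening complex, moved least. ELF3-A stood at 1403, 1236 and 1103 normalized counts in WT well-watered and 730.2, 811.5 and 828.1 in WT drought libraries. In UBQ it went from 1266, 1221 and 1118 to 352.9, 366.3 and 402.4. In DREM it went from 1168, 1207 and 1096 to 491.2, 470.3 and 465.5, and in DEH2 from 905.8, 1194 and 1256 to 518.6, 459 and 508.2. The highest ELF3-A drought library, at 828.1, was below the lowest well-watered library, at 905.8. How many of all genes separate in this way across the labels was not counted.

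The log2 changes of ELF3-A were -1.68 in UBQ, -1.28 in DREM, -1.16 in DEH2 and -0.65 in WT (SE 0.09 each, n = 3 per group, largest limma adjusted p = 4.85e-07). ELF3-B and ELF3-D fell less. ELF3-B changed by -0.94, -0.59, -0.37 and -0.45 and ELF3-D by -0.98, -0.66, -0.66 and -0.45 in the same order (SE 0.07). These smaller falls depended on the scaling of the libraries. When libraries were instead scaled to a common sum of values, which moved the median of all genes with drought by 0.58 in UBQ, 0.52 in DREM, 0.42 in DEH2 and 0.16 in WT, ELF3-B and ELF3-D in DREM no longer passed (-0.10 and -0.16, limma adjusted p = 0.387 and 0.167) and ELF3-B in DEH2 turned to 0.05 (limma adjusted p = 0.673). ELF3-A still passed in all 4 labels, and all LUX and GI drought changes kept their direction and call.

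Under well-watered conditions the transgenic lines were compared with WT, to ask how they differ without drought. LUX and GI differed between lines and WT, and ELF3 did not pass in any line on the authors' scaling. In UBQ, 6 of the 9 members passed, all 6 lower than in WT, against 31.1% of all genes tested and 15.9% lower. LUX-A, LUX-B and LUX-D differed by -3.44, -2.33 and -2.40 on the log2 scale. GI was lower by less, at -0.49, -0.28 and -0.53 for the A, B and D copies.

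In DEH2, 6 of 9 also passed, all lower, against 19.5% of all genes and 10.5% lower. LUX was lower, at -1.39, -1.26 and -0.71, while the neighbours of LUX-D were higher by a median of 0.88. GI was at -0.24, -0.64 and -0.32. The GI-A and GI-D differences passed (limma adjusted p = 0.0235 and 0.00373), but both calls depended on the libraries kept and on the scaling. GI-A no longer passed without WT replicate 1, WT replicate 2 or DEH2 replicate 2, at -0.24, -0.22 and -0.12, and GI-D without DEH2 replicate 1, at -0.19. Neither passed under the common-sum scaling, at -0.22 and -0.30.

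DREM went the other way. There 5 of 9 passed, against 21.3% of all genes, and all 5 were higher than in WT, as were 9.66% of all genes. LUX-A differed by 0.44 (SE 0.13, limma adjusted p = 0.0137) and LUX-B by 0.96 (SE 0.19), whereas LUX-D did not pass, at -0.11 (95% interval -0.42 to 0.20). The call for LUX-A was lost without WT replicate 1, at 0.29, or without DREM replicate 3, at 0.41. GI-A, GI-B and GI-D were higher by 0.48, 0.42 and 0.68.

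The 9 well-watered differences of ELF3 from WT ranged from -0.17 to 0.12 on the log2 scale. Their 95% intervals together spanned -0.36 to 0.26, which bounds the difference rather than showing that the lines were alike, and 2 of the 9, ELF3-B and ELF3-D in DEH2, had an unadjusted p under 0.05. In DEH2, ELF3-B and ELF3-D would pass without DEH2 replicate 3, at -0.22 and -0.26. ELF3-B in UBQ passed when libraries were scaled to a common upper quartile, at 0.19 (limma adjusted p = 0.038).

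Under drought the gap between the lines and WT was far wider for LUX and GI. All 6 LUX and GI copies were higher than in WT in each line, as were 30.6% of all genes in UBQ, 28.6% in DREM and 28.3% in DEH2. In UBQ, 9 of 9 members passed (60.9% of all genes tested), in DREM 8 of 9 (58.9%) and in DEH2 8 of 9 (58%). LUX-A was above WT drought by 6.25 in UBQ, 4.60 in DREM and 5.59 in DEH2, LUX-B by 5.58, 3.85 and 4.68, and LUX-D by 3.61, 3.47 and 3.32. Between lines under drought, 3 of 3 pairs passed for LUX-A and for LUX-B. Of all genes, 42.8% passed between UBQ and DREM, 40.2% between UBQ and DEH2 and 42.6% between DREM and DEH2. The limma adjusted p for LUX-D lay between 0.142 and 0.492, with no allowance for the 3D run that was raised in DREM drought libraries.

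GI-D was above WT drought by 3.82 in UBQ, 3.26 in DREM and 4.08 in DEH2. GI-A was above it by 3.63, 2.95 and 3.75 and GI-B by 2.38, 1.85 and 2.52. ELF3-A was lower than in WT drought, at -1.08, -0.73 and -0.67 in the same order of lines. ELF3-B passed in UBQ only, at -0.36, and was at -0.16 in DREM (95% interval -0.30 to -0.02, limma adjusted p = 0.0509) and -0.07 in DEH2 (-0.21 to 0.07). The DREM value passed with a filter of 50 (limma adjusted p = 0.0447) and when only the groups compared were fitted (limma adjusted p = 0.0428). ELF3-D was at -0.42, -0.24 and -0.39. Most of these ELF3 differences depended on the scaling. Under the common-sum scaling, which moved the median of all genes by 0.34, 0.45 and 0.26, ELF3-B and ELF3-D in UBQ (-0.02 and -0.09), ELF3-A in DREM (-0.26) and ELF3-D in DEH2 (-0.12) no longer passed. ELF3-D in DREM turned to 0.23 (limma adjusted p = 0.0521) and ELF3-B in DREM to a called 0.31 (limma adjusted p = 0.00645). ELF3-A in UBQ and DEH2 still passed. WT drought replicate 1 had a sum of values of 54300000, against 41700000 and 41800000 in its sister libraries, so this scaling lowers it relative to them. Its part in the common-sum values against WT drought was not tested.

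Whether the drought change itself differed between a line and WT was tested as the difference of the drought changes. It passed for all 6 LUX and GI copies in all 3 lines, and each of these differences was positive, as were called differences for 24.9% of all genes in UBQ, 20.7% in DREM and 23.7% in DEH2. Over all members, 9 of 9 passed in UBQ (51.7% of all genes tested), 7 of 9 in DREM (44.4%) and 7 of 9 in DEH2 (48.7%). For LUX-A the differences were 9.69 in UBQ, 4.17 in DREM and 6.98 in DEH2, and for GI-D 4.35, 2.58 and 4.40. For ELF3-A they were -1.03, -0.63 and -0.51, of which the DREM and DEH2 values no longer passed under the common-sum scaling (-0.30 and -0.27). ELF3-B and ELF3-D in UBQ, at -0.48 and -0.53, also no longer passed under it (-0.09 and -0.14). That left 7 of 9 members in UBQ (52.1% of all genes tested under that scaling), 6 of 9 in DREM (44.4%) and 6 of 9 in DEH2 (46%). The 3 lines share the WT libraries, so these values are not independent of each other. The 2 water regimes carry different chromosome runs under the same labels, and a genotype that differs between the regimes of a label and a change with drought cannot be told apart in these differences.

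The copies of a triad did not change in proportion. A copy's share of the triad total is compared between groups only, because values are not per length, and reads of the similar A, B and D copies may have been divided between them by the quantification. In WT, LUX-A made up 26.29% ± 3.57 (SD, n = 3) of the LUX total when well-watered and 26.26% ± 7.04 under drought. In UBQ its share went from 13.99% ± 2.26 to 55.91% ± 0.315, and in DEH2 from 18.92% ± 1.04 to 55.01% ± 1.38. The LUX-D share moved the opposite way, from 69.2% ± 2.02 to 18.97% ± 0.738 in UBQ and from 69.43% ± 4.45 to 24.1% ± 1.33 in DEH2. In DREM the shifts were smaller, with LUX-A going from 30.09% ± 4.57 to 41.91% ± 2.57 and LUX-D from 46.26% ± 1.76 to 40.33% ± 1.83. The LUX-B share rose from 16.82% ± 0.376 to 25.12% ± 1.03 in UBQ and from 11.65% ± 3.57 to 20.89% ± 0.583 in DEH2. In DREM it fell, from 23.65% ± 2.99 to 17.76% ± 1.17. LUX-D lies in the 3D run, and the median of its neighbouring genes was raised in DREM drought (0.66) and DEH2 well-watered (0.86) libraries. The part of that run in the LUX shares, and in how they differ between lines, was not tested.

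For GI it was the B copy that lost share in the lines. GI-B went from 56.79% ± 2.42 to 38.95% ± 0.0397 in UBQ, from 50.63% ± 0.989 to 40.57% ± 0.36 in DREM and from 46.25% ± 3.59 to 38.15% ± 0.643 in DEH2. In WT it gained, from 52.9% ± 2.12 to 61.63% ± 0.162. The group mean of the GI-D share lay between 26.97% and 28.78% in the drought groups of the lines and between 14.24% and 18.17% in the other 5 groups. For ELF3 the A copy lost share in the lines, from 32.97% ± 1.35 to 22.96% ± 1.6 in UBQ, 34.31% ± 0.742 to 24.87% ± 0.134 in DREM and 35.54% ± 1.63 to 25.79% ± 1.11 in DEH2. In WT, ELF3-A went from 35.56% ± 2.57 to 32.43% ± 1.97, and the libraries of the regimes overlapped. A library's shares do not depend on how the libraries were scaled.

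**Figure D5:**
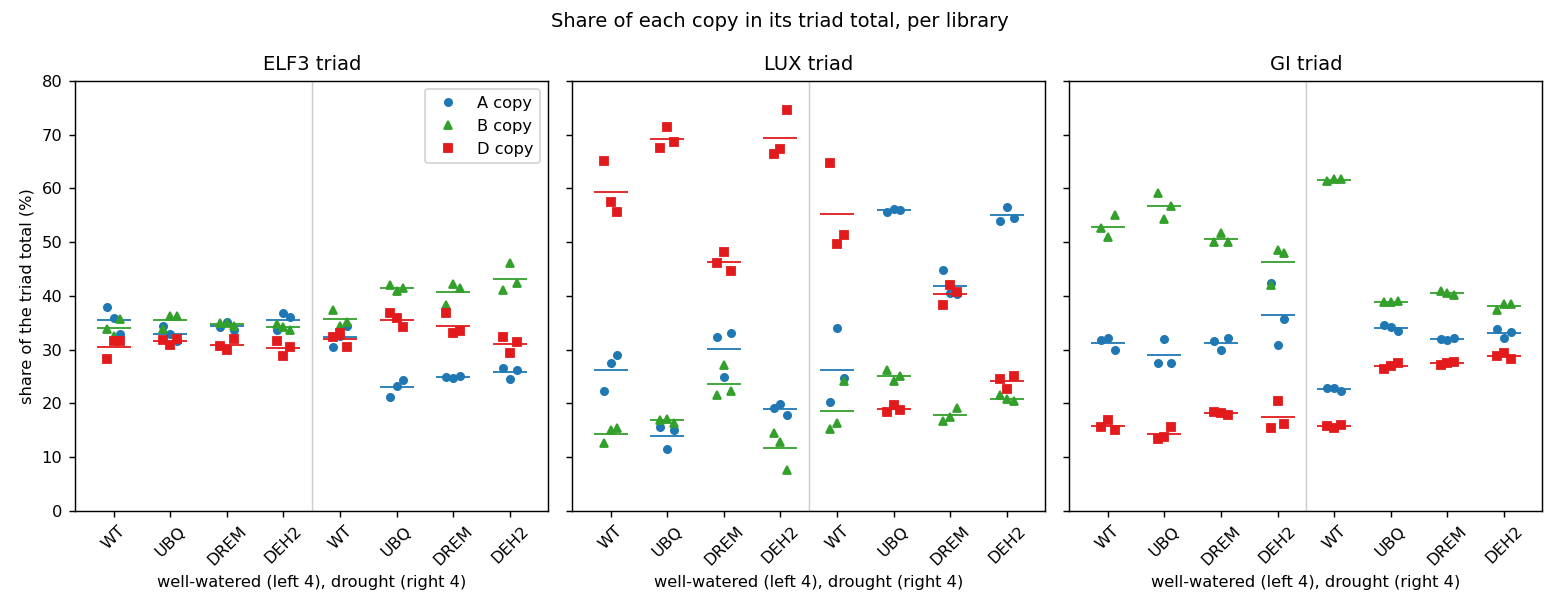
Share of the A, B and D copy in the summed normalized count of each triad (percent), by group, with points for libraries and short lines for the mean of 3 libraries. The LUX-A share lies between 40.33% and 56.58% in the drought libraries of the 3 lines and between 11.4% and 33.97% in all other libraries, and the GI-D share is at least 26.47% in those drought libraries and at most 20.5% in the others.

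The genes whose pattern over the 24 libraries was most like that of a triad were named by the Pearson correlation of log2(value + 1), among 41721 genes with a mean of at least 50. These correlations are a description over libraries that share groups. For the GI total, TraesCS4B02G023800 had r = 0.9981, TraesCS4A02G290400 had 0.9968 and TraesCS5D02G157600 had 0.9936. The first went from a mean of 123.8 in WT well-watered to 700.4 in WT drought and to 18444 in UBQ, 11779 in DREM and 21700 in DEH2 drought libraries. In all, 1290 genes (3.09%) reached 0.95 with the GI total. For the ELF3 total, TraesCS2D02G317500, TraesCS1A02G110900 and TraesCS7B02G482300 were the most alike, at 0.9882, 0.9880 and 0.9871, and 1281 genes (3.07%) reached 0.95.

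The LUX pattern was shared by fewer genes, 134 (0.321%) at 0.95. The most alike were TraesCS1A02G343700 at 0.9848, TraesCS2A02G245900 at 0.9817 and TraesCS2A02G389000 at 0.9795, and the last pair lie in the 2A run that was lower in UBQ well-watered and WT drought libraries, the groups in which LUX was lowest or among the lowest. For LUX-D alone, all 3 of the most alike genes, TraesCS2A02G278600, TraesCS2A02G276100 and TraesCS2A02G245900, lie in that run. The part of the run in these correlations was not tested. For ELF3-D they were TraesCS5B02G469200, TraesCS5A02G459400 and TraesCS7B02G079700, at 0.9798 to 0.9769, and for GI-D TraesCS4B02G023800, TraesCS4D02G021400 and TraesCS6B02G230300, at 0.9960 to 0.9929.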

How the data were processed

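Per the labels, leaf RNA was sequenced from both fragment ends. The deposited signal per gene is a normalized count that the authors scaled between libraries but not to one sum, and it is not a whole number. Tools named in the submitters' processing notes, with no version, are CASAVA, Trimmomatic, STAR, Salmon and DESeq2; the genome build is not given in the labels. A read was worth 0.651 to 1.54, and only 2.04% to 12.9% of genes above 0 were whole multiples of that value within 0.01, so no count model was fitted. Sums of values were 32500000 to 54400000. A value of 0 allows up to 3 reads, 1.95 to 4.63 in these units, for counting error only.

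Of the 107891 identifiers, 0 matched a list of 155467 wheat genes with names (IWGSC CS RefSeq v2.1). A further list of clock genes, leaf markers and TOR itself were therefore not analysed here. Chromosomes and gene order were read from identifiers.

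In R 4.3.3 with the data.table package (version 1.17.8), log2(value + 1) of the 60088 genes that reached 10 in 3 or more libraries entered 1 limma 3.58.1 fit of 8 groups over 24 libraries, with an intensity trend and robust prior, two-sided, Benjamini-Hochberg adjusted over all genes per comparison, threshold 0.05. The pseudocount understates changes of low genes. There were 14 comparisons and 28 pairs of groups. Folds are ratios of group means. Neighbours were the 15 genes with a mean of at least 30 on each side, except for ELF3-A, which had 28 in all. All 9 members were named, with the 3 genes most alike in pattern to each triad total and to ELF3-D, LUX-D and GI-D. The members, lists and runs were chosen with earlier results of these data known. The fit was tested on simulated data. Alternatives were other pseudocounts, filters, scalings, priors and sample sets, a replicate block, left-out libraries and other well-watered groups.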

Additional observations from a re-analysis of the deposited data

Results flagged for a closer look

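The drought change differed between a line and WT for 23 of the 27 gene and line combinations tested as differences of drought changes (limma, adjusted p under 0.05, 3 libraries per group). Of all genes tested, 51.7% passed in UBQ, 44.4% in DREM and 48.7% in DEH2. For each combination, the value is the log2 change with drought in the line minus that in WT. In UBQ the differences were 9.69, 7.90 and 6.01 for LUX-A, LUX-B and LUX-D, 4.12, 2.66 and 4.35 for GI-A, GI-B and GI-D, and -1.03, -0.48 and -0.53 for ELF3-A, ELF3-B and ELF3-D.

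In DREM the differences were 4.17, 2.89 and 3.58 for the A, B and D copies of LUX, 2.47, 1.43 and 2.58 for those of GI, and -0.63 for ELF3-A. In DEH2 they were 6.98, 5.94 and 4.03 for LUX, 3.99, 3.16 and 4.40 for GI, and -0.51 for ELF3-A. For LUX the labelled WT change was negative and the change in each line positive, in all 3 copies. The sign of the LUX change in WT depended on which well-watered group was used, as given above. Under the common-sum scaling, which moved the median difference of all genes by 0.36 in UBQ, 0.29 in DREM and 0.23 in DEH2, the ELF3 differences no longer passed for ELF3-B and ELF3-D in UBQ (-0.09 and -0.14) or for ELF3-A in DREM and DEH2 (-0.30 and -0.27).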

How the results depend on the processing

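Other pseudocounts, and no filter on low values, changed 0 of 126 single-gene calls. A filter of 50, and a fit without trend and robust prior, changed 1 each. Any pairing of libraries by replicate number was weak. The correlation of deviations was over 0.1 in 1 of 84 same-numbered pairs (range -0.0571 to 0.124). Its mean was 0.00288 for the same number and -0.00142 for other numbers. Some pairing is not excluded, as 14 of 24 libraries correlated best with their own number. With a replicate block, 0 of the 126 single-gene results changed call, and all 9 members passed in each of the 4 drought comparisons. Depth limits LUX-A and LUX-B in UBQ well-watered libraries.

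Scaling to a common sum turned ELF3-B with drought in DEH2 to 0.05. It turned the well-watered DREM differences from WT to 0.04 for ELF3-A, 0.13 for ELF3-B, 0.11 for ELF3-D and 0.04 for LUX-D, and the drought differences to 0.31 for ELF3-B and 0.23 for ELF3-D in DREM and 0.20 for ELF3-B in DEH2. Differences of drought changes turned to 0.18 and 0.12 for ELF3-B and ELF3-D in DREM and 0.03 for ELF3-D in DEH2. In all, 12 single-gene calls were lost with their direction kept: ELF3-B and ELF3-D with drought in DREM (-0.10 and -0.16), GI-A and GI-D in well-watered DEH2 against WT (-0.22 and -0.30), ELF3-B and ELF3-D in UBQ (-0.02 and -0.09), ELF3-A in DREM (-0.26) and ELF3-D in DEH2 (-0.12) against WT under drought, and the differences of drought changes of ELF3-B and ELF3-D in UBQ (-0.09 and -0.14) and of ELF3-A in DREM and DEH2 (-0.30 and -0.27). Pairs of groups past the threshold went from 20 to 8 for ELF3-B and from 21 to 12 for ELF3-D. It also shifted the split of all genes that passed, for example with drought in UBQ to 32949 higher and 12842 lower, from 22361 and 21408. The log2 changes of triad totals became -0.34, -0.59, -0.32 and -0.30 for ELF3 in WT, UBQ, DREM and DEH2, 6.73, 2.55 and 4.24 for LUX in the 3 lines, and 1.80, 5.60, 4.07 and 5.67 for GI. These moves follow from the scaling, since each is near the shift in the median of all genes.

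Scaling to a common upper quartile turned ELF3-A in well-watered UBQ against WT to 0.02, ELF3-B and ELF3-D in well-watered DREM to 0.07 and 0.05, and ELF3-B in DEH2 drought to 0.02, and gave 5.08 for the GI total in UBQ. With it, ELF3-B in well-watered UBQ against WT passed, at 0.19 (limma adjusted p = 0.038). ELF3-D in DREM against WT under drought no longer passed, at -0.12 (limma adjusted p = 0.208). GI-A and GI-D in well-watered DEH2 against WT lost their calls under both scalings and when only the groups compared were fitted. With libraries left out in turn, 3 values that had not passed crossed 0: ELF3-A in well-watered UBQ against WT (-0.13 to 0.04), ELF3-B in well-watered DREM against WT (-0.06 to 0.02) and the ELF3-B drought difference in DEH2 (-0.01 to 0.16). The ELF3-D difference of drought changes, which had not passed in DREM or DEH2, passed in DREM without DREM drought replicate 1, at -0.28, and in DEH2 without DEH2 well-watered replicate 1, at -0.29. Against UBQ well-watered libraries, chosen after seeing the data, LUX in WT drought turned to 1.81, 1.06 and 0.66 for the A, B and D copies. With 5 neighbours on each side, the medians around LUX-D were 0.89 for DEH2 well-watered libraries and 0.75 for DREM drought libraries, and the largest elsewhere was 0.39. Causes not stated here were not tested.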
